A study of Mus musculus with 8 samples.

Results

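Inflammatory cytokines and suppressive enzymes were described in the RNA of splenic myeloid cells, through the genes Tnf, Il1b, Il1a, Il1rn, Il6, Il10, Tgfb1 and Ptgs2. Genes were taken by name, as cytokines and suppressive mediators of monocytic myeloid cells. Of 10 such genes, 10 were found among the 23084 genes of the deposited table, and the 8 named above are described. The study asked how myeloid cells that lack lamin A/C, a protein of the nuclear lamina, differentiate and function. Monocytic (CD11b+Ly6C+) cells and granulocytic (CD11b+Ly6G+) cells were sorted for RNA-seq from spleens of wt and LmnaMyeKO mice. In the latter, LysM-Cre deletes floxed Lmna in cells of the myeloid lineage, and other cells keep the gene. The 8 samples form 4 groups of 2, wt CD11b+Ly6C+, wt CD11b+Ly6G+, LmnaMyeKO CD11b+Ly6C+ and LmnaMyeKO CD11b+Ly6G+. All came from C57BL/6 mice that were 6 to 8 weeks old, no treatment is named in their labels, and whether they carried tumors is not given in the sources used here. The subset was taken from the sample titles, because the label for cell markers names CD11b+Ly6C+ for every sample.

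Myeloid cells that suppress T cells do so through secreted cytokines and through enzymes that use up or make small molecules around the T cell. IL-1 and TNF start inflammation through receptors that activate NF-kB, IL-10 and TGF-β restrain it, and IL-6 signals through gp130 and STAT3. Cyclooxygenase-2 makes the precursor of prostaglandin E2. Many of these messenger RNAs are short-lived, because AU-rich elements in the 3′ untranslated region (UTR) bind proteins that speed their decay.

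The value given for each gene is the authors' mean signal, an average of read counts divided by size factors that scale the libraries to one another. A read adds a fixed step to this average, and the size of the step depends only on the library it came from. The 2167 genes with a mean signal under 0.6 were explained by 8 steps, and 2167 of them came out as whole reads within 5e-09. This number of steps equals the number of samples, so the mean was read as an average over both subsets and both genotypes. A read added between 0.0653 and 0.157, so the number of reads behind a mean could be bounded. The smallest step came from 1 library that stood apart, with a size factor of 1.91, while those of the other libraries ran from 0.796 to 1.05. Which step belongs to which sample is not known and was not assigned. The errors below are upper limits of the counting error and hold nothing of the spread between mice. Levels of wt and LmnaMyeKO cells, or of the subsets, could not be separated in this mean, and no difference between them is reported. In such bulk samples, fewer cells of a type and less RNA per cell cannot be told apart.

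Lmna (chr3:88480147-88509956 of mm10, minus strand), the gene targeted in the LmnaMyeKO mice, had a mean signal of 79.5 with a counting error of at most 3.53. Per kb of exon this was 13.6, above 32.2% of the 15697 protein-coding genes in the table. An average over both genotypes does not check the genotype labels.

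Levels of the cytokine genes and Ptgs2 spread over more than 3 orders of magnitude. Divided by the length of the exons in kb, they fell in the order Il1b, Il1rn, Tgfb1, Tnf, Ptgs2, Il1a, Il10 and Il6. The median of the 8 genes was 227 mean signal per kb, beside a median of 60.2 over the protein-coding genes. Of the 8 genes, 6 lay above that median, and 3 (Il1b, Il1rn and Tgfb1) lay at or above the 90th percentile of 673 per kb. Il1a lay just above the median, at 51.4%, and fell to 37.8% among protein-coding genes with a mean signal of at least 10. Together the 8 genes held 0.154% of the summed mean signal of the table, and Il1b alone held 0.101%. Each neighbouring pair in this order was separated by more than the counting error. With the median coding transcript as the length, Tnf and Ptgs2 changed places, and the other 6 genes kept theirs.

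**Figure D1:**
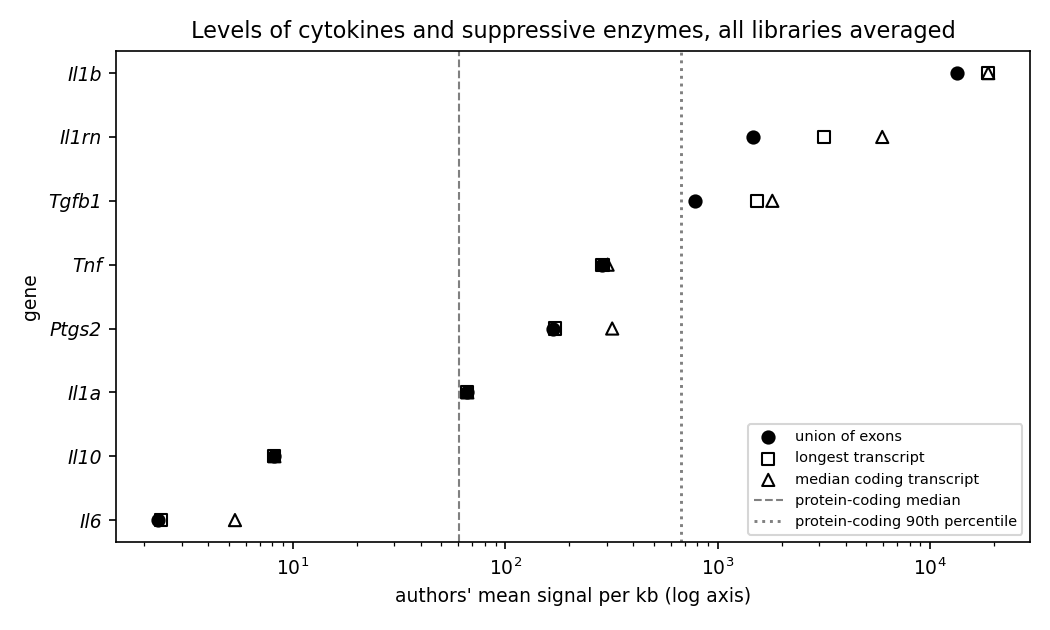
Authors' mean signal per kb for each of the 8 genes, on a log axis, with the length taken as the union of exons (filled circles), the longest transcript (squares) or the median protein-coding transcript (triangles). The dashed and dotted lines are the median (60.2) and the 90th percentile (673) of protein-coding genes per kb of exon; Il1b lies far to the right at 13349 and Il6 at the left end at 2.31.

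Among the inflammatory cytokines, Il1b was the most abundant. Il1b (ENSMUSG00000027398.13, chr2:129364570-129371139, minus strand) encodes IL-1β, which is made as an inactive precursor and cut by caspase-1. Its mean signal was 25457 (counting error at most 63.2), from at least 162171 reads. Per kb of exon it reached 13349, higher than 99.6% of protein-coding genes.

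Il1a (ENSMUSG00000027399.1, chr2:129299610-129309972, minus strand) encodes IL-1α, which acts on the same receptor and is active without cleavage by caspase-1. It lies 54.6 kb from Il1b on the same strand. Its mean signal was 131 (counting error at most 4.53), and its level per kb of 66.3 was close to the median of protein-coding genes. The level of Il1b per kb was 201 times that of Il1a, with a 95% counting interval from 188 to 216. With the longest or the median coding transcript as the length, this ratio was 283. Both genes encode agonists of the IL-1 receptor, and they differed widely in level.

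Il1rn (ENSMUSG00000026981.15, chr2:24336853-24351494, plus strand) encodes the IL-1 receptor antagonist, which occupies the receptor without activating it. Its mean signal was 8077 (counting error at most 35.6), or 1459 per kb of exon, beside 3163 with the longest and 5952 with the median coding transcript. Il1b exceeded its antagonist 9.15-fold per kb of exon, and this ratio depended on length, at 5.94 with the longest transcript and 3.15 with the median coding transcript. The 6 annotated transcripts of Il1rn differ in length, and Il1b stood above Il1rn with each of the 3 lengths.

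Of the other genes of the IL-1 family and the inflammasome, 13 of 14 were in the table, and 5 of the 13 lay at or above the 90th percentile per kb. Their median was 342 per kb (603 with the longest transcript) and their summed mean signal was 26831. Il1r2, the decoy receptor that binds IL-1 without signaling, was the highest at 1802 per kb. Il1r1, the signaling receptor, was at 5.30 per kb, so that the decoy exceeded it 340-fold (95% counting interval 297 to 389). With the median coding transcript this ratio was 715. Nlrp3 and Casp1, which encode the inflammasome sensor and the protease that cuts the IL-1β precursor, were at 847 and 902 per kb. Gsdmd, whose product forms the pore through which IL-1β leaves the cell, was at 849 per kb. Il18, another substrate of caspase-1, was at 554 per kb, which was 8.37 times the level of Il1a. Il33 was the lowest of the list at 0.946 per kb.

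Tnf (ENSMUSG00000024401.14, chr17:35199381-35202007, minus strand) encodes TNF, a cytokine released from the cell membrane by the protease of Adam17. Its mean signal was 470 (counting error at most 8.59), from at least 2995 reads, and its level was 287 per kb. It lies between Lta and Ltb, which encode the lymphotoxins, with gaps of 1157 and 3060 bases. Ltb, at 2923 per kb, was 10.2 times as high as Tnf, while Lta was lower than Tnf, at 55.6 per kb. Both TNF receptor genes were above their ligand. Tnfrsf1a was at 3568 and Tnfrsf1b at 1902 per kb, 12.4 and 6.63 times the level of Tnf. The first of these ratios reached 34.5 with the median coding transcript.

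Il6 and Il10 were the lowest of the 8 genes, above 19.9% and 28.3% of protein-coding genes per kb. Il6 (ENSMUSG00000025746.11, chr5:30013114-30019981, plus strand) had a mean signal of 5.62 (counting error at most 0.939), from between 36 and 85 reads over all samples. Il10 (ENSMUSG00000016529.5, chr1:131019845-131024974, plus strand) had a mean signal of 10.7 (counting error at most 1.3), from between 69 and 164 reads. Per kb, Il10 was at 8.19 and Il6 at 2.31, a ratio of 3.54 (95% counting interval 2.36 to 5.30). With the median coding transcript Il6 was at 5.34 per kb and the ratio was 1.53. Both cytokines were therefore detected from few reads.

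The receptors of both cytokines were far more abundant than the cytokines. Il6ra, the IL-6 binding chain, was at 625 per kb, and Il10ra, the ligand-binding chain for IL-10, at 1239 per kb. These were 270 times Il6 and 151 times Il10, and the ratio to Il6 was 169 with the median coding transcript. The 14 genes of the TNF, IL-6 and IL-10 pathways were all in the table, with a median of 1106 per kb and a summed mean signal of 92925, and 10 of the 14 lay at or above the 90th percentile. Zfp36, which encodes tristetraprolin, a protein that binds AU-rich elements and promotes the decay of Tnf mRNA, was the highest at 6410 per kb. Stat3 and Socs3, a transcription factor downstream of IL-6 and IL-10 and an inhibitor of gp130 signaling, were at 973 and 1874 per kb. Il6st, which encodes gp130 itself, was lower, at 109 per kb.

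Tgfb1 (ENSMUSG00000002603.15, chr7:25687002-25705077, plus strand) encodes TGF-β1, which is secreted in a latent form. Its mean signal was 3932 (counting error at most 24.8), or 780 per kb, higher than 91.2% of protein-coding genes. Per kb of the longest and of the median coding transcript it was 1528 and 1808, and among protein-coding genes with a mean signal of at least 10 the share below it was 88.7%. The genes for the other isoforms were low, with Tgfb3 at 6.47 and Tgfb2 at 1.17 per kb. Tgfb1 exceeded Tgfb3 121-fold (95% counting interval 102 to 142), and 236-fold with the longest and 279-fold with the median coding transcript.

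In the TGF-β list, 16 of 17 symbols were in the table. The remaining symbol, Lrrc33, is an older name of Nrros, which was present. The median of the list was 116 per kb, its summed mean signal was 27171, and 2 of the 16 genes lay at or above the 90th percentile. Nrros, which encodes the protein that holds latent TGF-β1 on myeloid cells, was the highest at 1220 per kb, and Furin, which encodes a protease that cuts the TGF-β1 precursor, was at 752. Lrrc32, whose product holds latent TGF-β1 on regulatory T cells and platelets, was at 7.20 per kb. The receptor genes Tgfbr2 and Tgfbr1 were at 653 and 448 per kb. Ltbp1, which encodes a matrix protein that binds latent TGF-β, was the lowest of the list at 0.745 per kb.

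Among genes that handle arginine, the amino acid T cells need to proliferate, Nos2 was low. It encodes the inducible nitric oxide synthase, which consumes arginine, and stood at 0.718 per kb. The 11 genes of the arginine list were all in the table, with a median of 173 per kb and a summed mean signal of 6133, and 0 lay at or above the 90th percentile. Oat, which encodes the mitochondrial ornithine aminotransferase, was the highest at 575 per kb. Odc1, the enzyme that turns ornithine into putrescine, was at 239 per kb. Among the arginine transporters, Slc7a7 was at 312, Slc7a1 at 54.7 and Slc7a2 at 24.2 per kb. Agmat was the lowest of the list, with 3 reads in 2 of the libraries.

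Ptgs2 (ENSMUSG00000032487.8, chr1:150100031-150108227, plus strand) encodes the inducible cyclooxygenase-2. Its mean signal was 767 (counting error at most 11.0), or 167 per kb (319 with the median coding transcript), higher than 68.2% of protein-coding genes. Ptgs1, which encodes the constitutive cyclooxygenase-1, was at 537 per kb, 3.21 times as high (95% counting interval 3.11 to 3.32). This ratio was 4.23 with the longest and 2.28 with the median coding transcript. The order of Tnf and Ptgs2 depended on length, since Tnf was 1.71 times Ptgs2 per kb of exon and 0.951 times with the median coding transcript.

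In the prostaglandin list, 15 of 16 genes were in the table, and Ptgds was not. Their median was 129 per kb, their summed mean signal was 11863, and 1 of the 15 lay at or above the 90th percentile. That gene was Hpgd, whose product inactivates prostaglandins, at 1279 per kb. Ptges, which encodes the inducible prostaglandin E synthase, was at 38.7 per kb. The receptors of prostaglandin E2 ran from Ptger2 at 132 and Ptger1 and Ptger4 at 78.7 and 77.3 down to Ptger3 at 1.69 per kb.

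Other suppressive mediators had a median of 781 per kb and a summed mean signal of 106607, with 10 of 10 genes in the table and 5 at or above the 90th percentile. Hmox1, which encodes the heme-degrading enzyme heme oxygenase-1, was the highest at 12182 per kb. Ncf1 and Cybb, subunits of the NADPH oxidase that makes superoxide, were at 9450 and 6239 per kb. Cd274, which encodes PD-L1, was at 436 per kb. Ido1, which encodes an enzyme that breaks down tryptophan, was the lowest at 3.21 per kb. Genes that every cell uses, given as a scale, had a median of 3571 per kb, with 10 of 10 in the table, a summed mean signal of 383210, Actb as the highest at 69844 per kb and Tbp as the lowest at 48.1.

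Markers of the cell types that the samples could hold were read from the same mean, which cannot check the label of any sample. Neutrophil markers (10 of 10 in the table) had a median of 47126 per kb, with Ly6g at 8337 per kb. They summed to 1842150 and held 7.30% of the summed mean signal of the table. S100a9 and S100a8, the most abundant of them, held 2.88% and 1.64% of it. Monocyte markers (10 of 10) had a median of 722 per kb and a summed mean signal of 104572. Of these markers, 5 lay at or above the 90th percentile per kb, and Cx3cr1 was the lowest at 157 per kb. Itgam, which encodes CD11b and is part of the gate of both subsets, was the highest of them at 10760 per kb (its symbol occurs more than once, and the row with the highest mean was used). Ly6c2, which encodes Ly6C, was at 5260 per kb. Both marker lists thus had signal in the averaged samples, and which cells it came from was not tested.

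Markers of cell types not named in the sort had signal as well, and whether it came from cells outside the sort was not tested. Tissue macrophage markers (10 of 10) had a summed mean signal of 125332 and a median of 3114 per kb (5003 with the longest transcript), with C1qb as the highest at 9704. B cell markers (10 of 10) summed to 37785 with a median of 918 per kb, led by Cd79a at 4065. Erythroid and platelet markers (10 of 10) summed to 21513 with a median of 111 per kb, led by Hbb-bs at 11172.

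Other lineages had a lower summed mean signal. T and NK cell markers (10 of 10) summed to 4142 with a median of 139 per kb, led by Nkg7 at 519. Dendritic cell markers (8 of 8) summed to 3897 with a median of 30.5 per kb, led by Itgax at 542, and Xcr1 was the lowest at 3.77. Markers of eosinophils, basophils and mast cells (10 of 10) summed to 4277 with a median of 43.2 per kb, led by Ccr3 at 859. None of the markers in these 8 lists was at 0, but no gene of the table had fewer than 2 reads. The lack of a 0 therefore does not show which cells were present. The part of these cells in the levels of Il1b, Il1rn, Tgfb1 and the other cytokine and enzyme genes was not tested. Nor was their part in the levels of the pathway list genes, such as Hmox1.

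**Figure D2:**
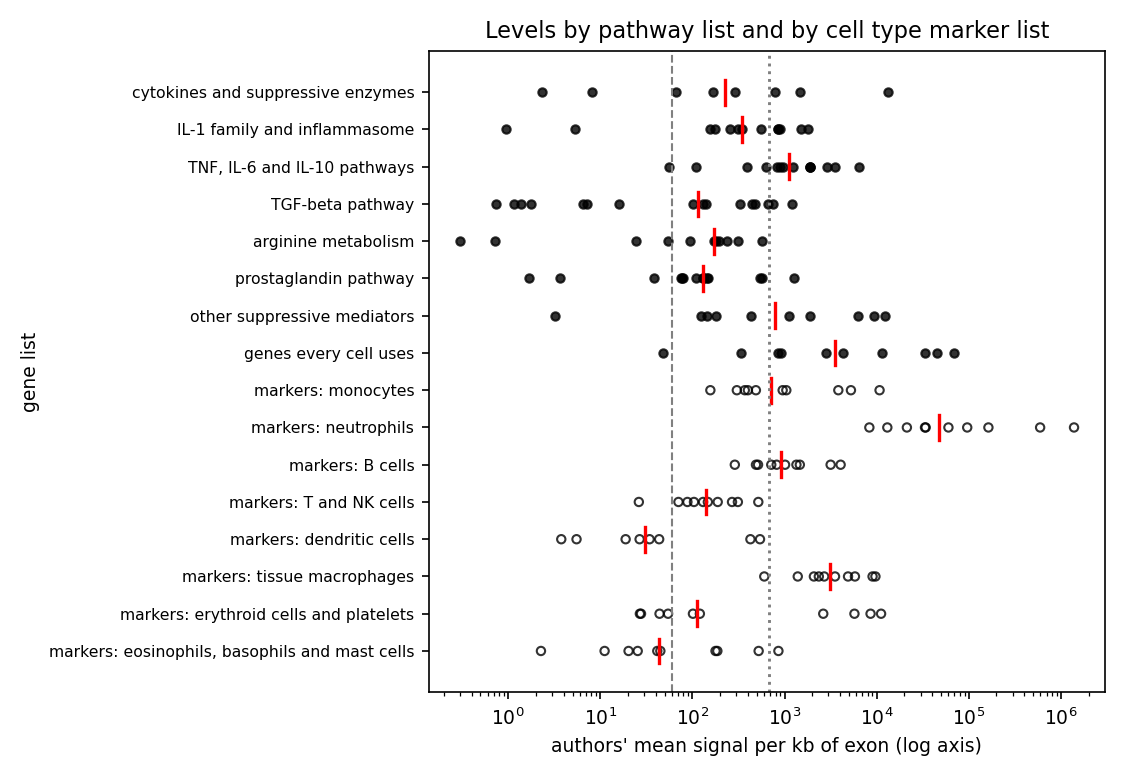
Authors' mean signal per kb of exon on a log axis, with 1 point per gene, for the 8 cytokine and enzyme genes, the pathway lists (filled) and the cell type marker lists (open), and a red bar at each median. The dashed and dotted lines are the median (60.2) and the 90th percentile (673) of protein-coding genes; neutrophil markers lie highest, with a median of 47126, and dendritic cell markers lowest, with a median of 30.5.

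The 3′ UTRs of the 8 genes were searched for ATTTA, the pentamer at the core of AU-rich elements, on the sense strand, with overlapping matches counted. The longest annotated 3′ UTR of each gene was used. Across 15496 protein-coding genes of the table that had a 3′ UTR, 67.5% held at least 1 ATTTA, and the median was 1.22 per kb. The median of the 8 genes was 6.70 per kb, and 6 of the 8 (Tnf, Il1b, Il10, Tgfb1, Il6 and Ptgs2) lay at or above the 90th percentile of 4.09 per kb.

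In the longest 3′ UTRs, Tnf had the highest density of the 8, with 8 pentamers in 764 bases (10.5 per kb), above 99.2% of protein-coding genes. Il1b held 4 in 459 bases and Il10 held 6 in 706 bases. Ptgs2 held the largest number, 14 in 2445 bases, and Il6 held 10 in 1668 bases (6.00 per kb). In the 3′ UTR of the transcript with the longest coding sequence, Il6 held 6 in 427 bases, and its density of 14.1 per kb was then above that of Tnf. In Tgfb1 the density rested on 1 pentamer in a short 3′ UTR of 135 bases. Il1a held 3 in 1101 bases, and Il1rn held 0 in 1864 bases. The 3′ UTR of the IL-1 antagonist thus held no pentamer, while those of both agonist genes did.

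A window of 30 bases with the most pentamers is shown for each gene that had at least 2 in such a window. Sequences are from the GENCODE M21 transcripts, 5′ to 3′ on the sense strand, with ATTTA in capitals. In Ptgs2, Il1a and Il6, windows over other sets of pentamers held as many. The windows lie in the 3′ UTR at chr17:35199678-35199707 (Tnf, minus strand), chr2:129364802-129364831 (Il1b, minus strand), chr2:129300103-129300132 (Il1a, minus strand), chr1:150105798-150105827 (Ptgs2, plus strand) and chr5:30019684-30019713 (Il6, plus strand) of mm10.
Tnf: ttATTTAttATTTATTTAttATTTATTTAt
Il1b: cttacctATTTATTTAtgtATTTAttgatt
Il1a: tctatgtATTTAtaaatatATTTAtgataa
Ptgs2: ATTTATTTATTTAtgtgaagaATTTAattt
Il6: atttttaATTTAttgataATTTAaataagt
The windows of Tnf, Ptgs2 and Il1b held 5, 4 and 3 pentamers, and those of Il1a and Il6 held 2 each. Pentamers overlapped in the windows of Tnf, Ptgs2 and Il1b and lay apart in those of Il1a and Il6. The pentamers of Il1b lay near the middle of the 3′ UTR, while the window shown for Ptgs2 lay just after the stop codon. A match is a run of letters and does not show that a protein binds there.

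**Figure D3:**
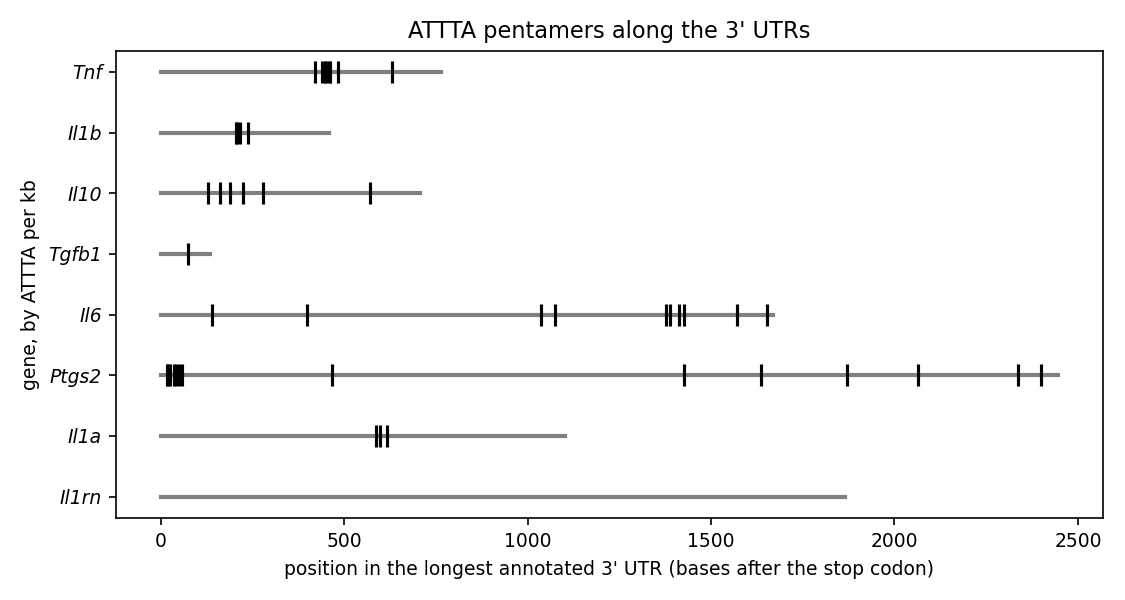
ATTTA pentamers (ticks) along the longest annotated 3′ UTR (grey lines, to scale in bases after the stop codon) of the 8 genes, ordered by pentamers per kb. Tnf, with 8 in 764 bases, is at the top, and Il1rn, with 0 in 1864 bases, at the bottom.

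The longer heptamer TATTTAT, a stricter form of the element, was found in 28.7% of the protein-coding genes. Tnf held 8, Ptgs2 held 6, Il10 held 4, Il1b and Il1a held 3 each and Il6 held 1. Il1rn and Tgfb1 held 0. By this motif Il1a was among the 5 genes at or above the 90th percentile of density, and Il6 and Tgfb1 were not.

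In the pathway lists, the median density was lower than 6.70 per kb, at 1.79 in the IL-1 family list, 1.38 in the TNF, IL-6 and IL-10 list, 1.55 in the TGF-β list, 2.08 in the arginine list, 1.83 in the prostaglandin list and 1.72 in the list of other suppressive mediators. Genes at or above the 90th percentile numbered 2 of 13, 2 of 14, 3 of 16, 3 of 11, 2 of 15 and 3 of 10 in these lists. In list order, these were Casp4, Nlrp3, Lta, Il10rb, Ltbp3, Nrros, Itgav, Nos2, Oat, Gatm, Pla2g4a, Hpgd, Ido1, Cd274 and Vegfa. Pla2g4a encodes the phospholipase that releases arachidonic acid for the cyclooxygenases. Genes with a like density differed in level. Il10 and Il1b had 8.50 and 8.71 pentamers per kb of 3′ UTR, and mean signals of 8.19 and 13349 per kb of exon.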

How the data were processed

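RNA was sequenced from 8 samples in 4 groups of 2. Per the submitters' processing notes and the study's methods, reads were trimmed with cutadapt 1.14, aligned to mm10 with STAR 2.5.2b, quantified with RSEM 1.3.0 on GENCODE M12 and compared with DESeq2 1.20.0. The deposited table gives for each gene a mean signal, which the authors computed as the average of counts divided by size factors. Low genes came out as whole reads, so the averaged counts were whole numbers. Its other 6 columns of numbers hold the authors' comparison of the genotypes and were not used. They give log2 fold change, its standard error, the test statistic, p-value, adjusted p-value and fold change. Values per sample were not analysed here, so the planned genotype test was not run, no p-value is given and, beyond the range of reads stated in the study's methods, the depth of single samples is not known here. The 8 size factors read from the steps, none assigned to a sample, ran from 0.796 to 1.91.

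From the mean signal, the steps of a read were found and refined by least squares, and the procedure was tested on simulated tables. Counting errors are the square root of the mean times the largest step, an upper limit, and 95% counting intervals of ratios were taken from them on the log scale. Lengths, positions and 3′ UTRs came from GENCODE M21 (also mm10), which held 23004 of the 23084 identifiers, so some exons may differ from those the authors counted. Where a symbol occurs in several rows (28 symbols), the row with the highest mean was used. Of the 10 chosen genes, 2 are not reported here. The genes named are the other 8, Lmna and the genes of the lists. The genes and lists were chosen with earlier results of these data known. Alternatives were other gene lengths, other background genes, levels per gene, another 3′ UTR and another motif. Python 3.11.15, numpy 2.4.6, pandas 2.3.3 and matplotlib 3.10.9 were used.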

Additional observations from a re-analysis of the deposited data

How the results depend on the processing

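The count of 3 genes at or above the 90th percentile per kb was also 3 with the longest transcript, with the median coding transcript, with all genes of the table as background and with the mean signal per gene. It was 2 among protein-coding genes with a mean signal of at least 10, where Tgfb1 fell to 88.7%. The count of 6 genes above the median was 6 with all genes as background and 5 with both other lengths, with a mean signal of at least 10 and with the mean signal per gene. The count of 6 genes at or above the 90th percentile of ATTTA density was 6 with the 3′ UTR of the transcript with the longest coding sequence, where Il6 rose from 6.00 to 14.1 per kb and passed Tnf, and 5 with TATTTAT. Of 42 ratios under other lengths, 16 stayed within the counting interval, 25 left it in the same direction and 1 turned, Tnf over Ptgs2, at 0.951 with the median coding transcript. This turn follows from the lengths alone. The level per kb moved beyond the counting error in 10 of 16 cases, at most 4.08-fold, for Il1rn with the median coding transcript. Of 15 list medians, 2 moved by more than 1.5 times with the longest transcript, the IL-1 family and inflammasome to 603 and tissue macrophages to 5003 per kb.

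No paired analysis was possible because the mean used here is pooled over samples. The count test, its normalization and filter alternatives and leaving out each replicate were likewise not run. Protein identity between related genes was not run, for want of protein sequences. For Il6 and Il10, depth limits precision. Spread between mice is unknown for every gene named.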
